A study of Mus musculus with 9 samples.

Results

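The 45 genes described here are genes of blood and lymphatic vessels: junction and surface proteins, receptors and their ligands, secreted and matrix proteins, signalling proteins, transcription factors, lymphatic and scavenger genes, and selectins of the endothelium. They were chosen by name. All 45 had a probe set on the array, out of 18193 genes with a probe set of their own, and where a gene had several the one brightest on average was read. No filter on dim values was applied, so every gene of the list was tested in every comparison.

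The arrays were run on RNA of sorted cells, about 50000 per population, taken at postnatal day 2 from mouse back skin. Gate R1 held cells negative for green fluorescent protein (GFP) and for CD133, the product of Prom1, and is labelled as dermal cells without papilla. Gate R2 held GFP-CD133+ cells, labelled as papilla cells of zigzag hairs, and gate R3 held GFP+CD133+ cells, labelled as papilla cells of guard, awl and auchene hairs. Each gate was taken from the same 3 mice, numbered 2, 4 and 5, giving 3 arrays per gate. The labels used here give no strain, sex or genotype. In such mice GFP is known as a reporter of Sox2, and Sox2 had a mean log2 value of 4.19 in R1, of 7.08 in R2 and of 10.66 in R3. The labels name GFP and CD133 as sort markers and no vessel marker.

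Endothelial cells line blood and lymphatic vessels and are held together by junction proteins such as Pecam1, Cldn5 and Esam. Their growth and resting state are set by receptor kinases such as Tie1 and Tek and by G protein-coupled receptors such as Aplnr and S1pr1, under transcription factors of the ETS family that include Erg, Fli1, Ets1 and Ets2. Lymphatic endothelium is specified by the homeobox factor Prox1 and carries the hyaluronan receptor Lyve1. In skin, vessels run through the dermis and around the hair follicles, and the dermal papilla is a cluster of mesenchymal cells at the follicle base.

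Promoter sequence from RefSeq (build GRCm38.p6) was at hand for 26 of the 45 genes, as the 250 bases before each transcription start. ETS factors bind sites built on the letters GGAA, and the ETS core searched here was CAGGAA on either strand, which reads TTCCTG on the other strand. The core is present in 18 of the 26 genes (69.2%), against 28.3% of all 27025 genes with a promoter in the table and 27% of the 14452 that were also on the array. Of the 17 genes with a promoter that were lower in R3 than in R2, 14 hold it. The related core CCGGAA was found in 1 of the 26 genes (3.85%), against 13.6% of all genes. The GATA core AGATAA was in 3 (11.5% against 11.4%), the E-box CAGCTG in 2 (7.69% against 14.7%) and the SOX core ACAAAG in 6 (23.1% against 18.6%). The letters were read on both strands, the motifs were chosen with the values known, a gene with several starts had more windows in which to match (Egfl7 and Erg had 3 each), and a match is a run of letters, not a measured binding site. The sequences below, 5′ to 3′ on the strand of the gene with the ETS core in capitals, belong to the 4 genes with the largest differences between R3 and R2 and to Clec14a, which went the other way.
Depp1, chr6:116650434-116650683, plus strand: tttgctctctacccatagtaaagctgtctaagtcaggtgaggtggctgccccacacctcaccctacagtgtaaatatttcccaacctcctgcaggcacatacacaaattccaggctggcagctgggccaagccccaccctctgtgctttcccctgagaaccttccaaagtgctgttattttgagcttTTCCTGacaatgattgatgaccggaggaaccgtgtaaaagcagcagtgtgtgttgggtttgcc
Mmrn1, chr6:60944067-60944316, plus strand: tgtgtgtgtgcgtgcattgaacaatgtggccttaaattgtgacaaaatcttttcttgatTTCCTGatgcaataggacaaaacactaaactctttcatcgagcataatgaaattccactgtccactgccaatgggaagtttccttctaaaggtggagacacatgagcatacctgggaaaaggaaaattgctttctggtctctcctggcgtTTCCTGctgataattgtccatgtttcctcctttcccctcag
Emcn, chr3:137340828-137341077, plus strand: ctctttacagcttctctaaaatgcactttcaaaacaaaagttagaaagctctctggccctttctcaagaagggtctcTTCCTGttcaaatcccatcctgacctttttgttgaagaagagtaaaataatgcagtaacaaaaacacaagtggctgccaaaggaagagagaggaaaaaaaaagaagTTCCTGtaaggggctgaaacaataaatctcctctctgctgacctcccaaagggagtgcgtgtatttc
Myct1, chr10:5593478-5593727, plus strand: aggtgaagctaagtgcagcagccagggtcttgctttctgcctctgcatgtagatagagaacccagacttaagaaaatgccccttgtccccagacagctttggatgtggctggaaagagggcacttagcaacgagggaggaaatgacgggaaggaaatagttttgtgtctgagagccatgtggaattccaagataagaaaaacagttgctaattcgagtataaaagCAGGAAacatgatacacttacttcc
Clec14a, chr12:58269259-58269508, minus strand: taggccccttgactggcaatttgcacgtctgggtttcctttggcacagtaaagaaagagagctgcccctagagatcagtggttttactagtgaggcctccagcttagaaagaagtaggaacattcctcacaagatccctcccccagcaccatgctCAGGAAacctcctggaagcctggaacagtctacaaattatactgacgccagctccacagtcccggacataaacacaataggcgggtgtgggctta
Mmrn1 and Emcn hold 2 copies of the core and Depp1, Myct1 and Clec14a 1 copy each, so the core is found on both sides of the split between genes low and high in R3. Cldn5, which was lower in R3 than in R2, holds none in its window.

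Values are log2 signals after robust multi-array averaging (RMA), so a difference of 1 is a doubling, and levels of different genes cannot be compared. The median of all values on an array lay between 6.13 and 6.20. Arrays of the same gate correlated at 0.977 to 0.985 over all 45101 probe sets and arrays of different gates at 0.951 to 0.974. By these correlations no array stood apart from its gate. As a guide to dim signal, 43 probe sets of olfactory receptors were ranked on each array, and their 95th percentile lay between 5.02 and 5.47. Comparisons were made with limma over all 9 arrays, and a gene was called at a Benjamini-Hochberg adjusted p under 0.05 over all 18193 genes. The 3 mice were separate animals, while the gates of a mouse share it.

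Vessel genes were highest in the GFP-CD133+ gate R2 and lowest in the GFP+CD133+ gate R3. The mean over the 45 genes was 6.89 to 7.06 on the R1 arrays, 7.89 to 8.03 on the R2 arrays and 6.08 to 6.21 on the R3 arrays, so the gates did not overlap. By gene, 40 of the 45 had their highest mean in R2, 3 in R1 (Cd34, Gja5 and Tal1) and 2 in R3 (Clec14a and Ets1). The lowest mean was in R3 for 37 genes, in R1 for 7 and in R2 for Gja5. On the R3 arrays 12 to 16 of the 45 genes were at or under the dim-signal guide, against 3 to 6 on the R1 arrays and 1 to 2 on the R2 arrays, so the differences of those genes are measured against a level near background. In a sorted bulk sample fewer vessel cells and less of an RNA per vessel cell cannot be told apart.

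**Figure D1:**
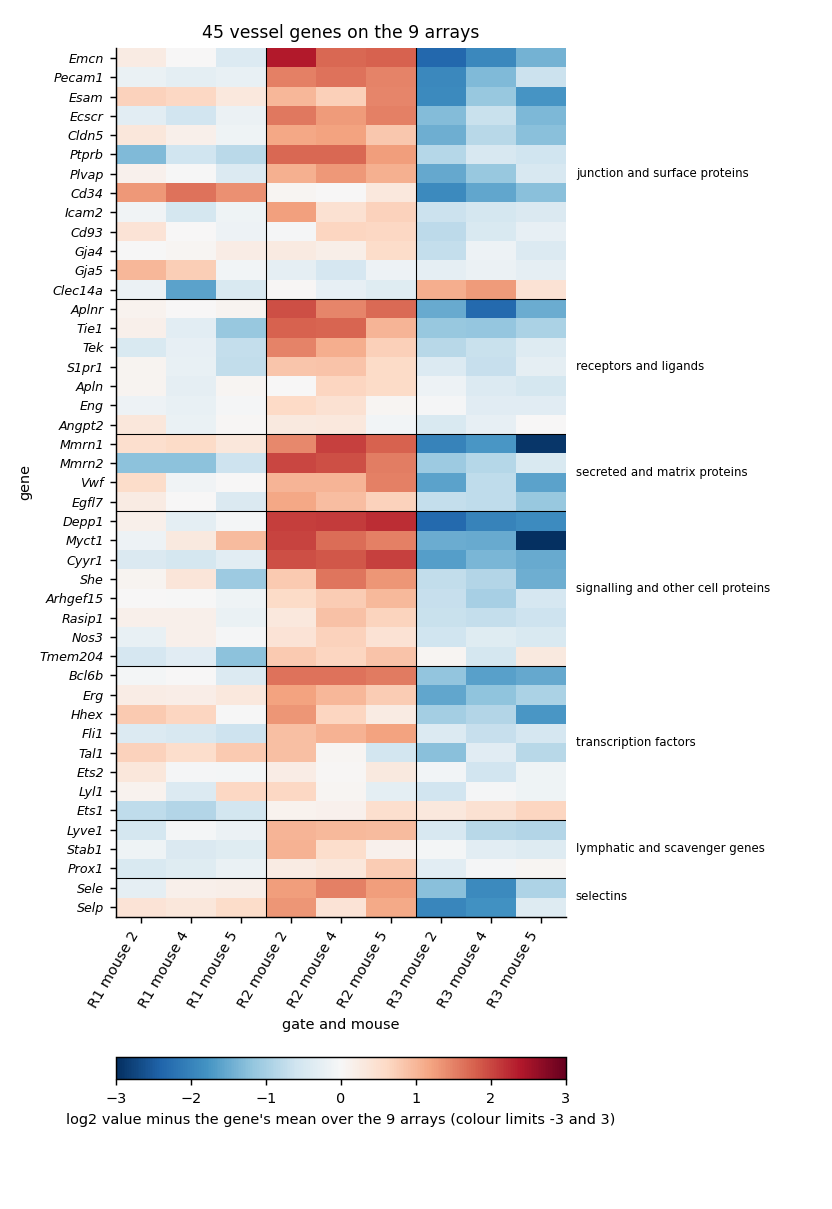
Heat map of the 45 vessel genes (rows, by role) on the 9 arrays (columns, by gate and mouse); colour gives the log2 value minus the gene's mean over the 9 arrays, with colour limits at -3 and 3. The R2 columns are mostly red and the R3 columns mostly blue, with Clec14a and Ets1 red in R3 and Cd34 and Gja5 highest in R1.

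The comparison of the GFP+CD133+ gate R3 with the GFP-CD133+ gate R2 asks how the populations labelled as papilla of different hair types differ. In R3, 32 of the 45 vessel genes were lower, 0 were higher and 13 were not called, and 9 of the 13 had an unadjusted p under 0.05. Over all genes 5.03% were called, 1.97% as higher and 3.06% as lower. The median change of the 45 genes was -1.72 (3.29-fold), against -0.01 over all genes. The 32 called genes were 1.69- to 18.5-fold lower, 20 of them by at least 4-fold and 6 by at least 10-fold. All 3 R3 arrays were below all 3 R2 arrays for 39 genes, an arrangement seen in 12.8% of all genes, and above them for Clec14a, as for 9.98% of all genes. The list was put together with results of these arrays known, and several of its genes were among the known large differences, so these counts describe the list and are no independent evidence of its direction.

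The largest difference was that of Depp1, a small protein induced under FoxO control. Its log2 values were 9.22, 9.25 and 9.37 in R2 and 4.82, 5.15 and 5.24 in R3, a fall of 4.21 (SE 0.16, 18.5-fold, adjusted p 1.42e-06 by limma). The R1 arrays lay between the other gates at 7.29, 6.85 and 7.09. All 3 R3 arrays of Depp1 were at or under the dim-signal guide, and its other probe set was 6.06-fold lower in R3. Cyyr1, a membrane protein of little known function, was as even among mice, with 9.09, 9.0 and 9.20 in R2, 5.50, 5.77 and 5.63 in R3 and 6.70, 6.62 and 6.82 in R1. Its R3 arrays were 11.0-fold below R2 (adjusted p 1.42e-06), and no array of any gate crossed into another. The other probe set of Cyyr1, with means at or under the dim-signal guide in 2 gates, was called in no comparison. From R2 to R3 that probe set fell 1.79-fold (adjusted p 0.0697 over all probe sets).

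Among the 13 junction and surface proteins, 10 were lower in R3, with a median change of -2.19 over the 13. Emcn, the endomucin of venous and capillary endothelium, read 8.93, 8.26 and 8.30 in R2 and 4.18, 4.60 and 5.11 in R3 (-3.86, SE 0.28, 14.6-fold, adjusted p 5.3e-05). The 3 R3 values of Emcn are at or near the dim-signal guide. Pecam1, the junction protein CD31, read 9.49, 9.61 and 9.46 in R2 and 6.03, 6.66 and 7.33 in R3 (7.19-fold lower, adjusted p 0.000277). Its R3 arrays spanned more than a log2 unit between mice 2 and 5, and all 3 still lay below every R1 and R2 array. Cldn5, a claudin of endothelial tight junctions, read 8.58, 8.61 and 8.22 in R2 and 5.95, 6.58 and 6.16 in R3 (4.73-fold lower, adjusted p 0.000194). The junction protein Esam was 6.34-fold lower, the angiogenesis protein Ecscr 5.9-fold, the phosphatase Ptprb 4.64-fold, the fenestral diaphragm protein Plvap 4.57-fold, the sialomucin Cd34 3.26-fold and the adhesion molecule Icam2 2.51-fold. Gja4, an arterial connexin, had the smallest called difference (1.69-fold, adjusted p 0.034), and that call was lost when either R3 array of mouse 2 or 5 or any 1 of the R2 arrays was left out (adjusted p 0.0594 to 0.1).

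Of the 7 receptors and ligands, 4 were lower in R3: Aplnr, Tie1, Tek and S1pr1. Aplnr, the receptor of apelin, read 9.25, 8.78 and 9.01 in R2 and 5.79, 4.99 and 5.82 in R3 (11.2-fold lower, adjusted p 2.68e-05). Tie1, the orphan receptor that partners Tek, read 7.12, 7.09 and 6.36 in R2 and 4.22, 4.19 and 4.40 in R3, all 3 under the guide to dim signal (5.99-fold lower, adjusted p 0.00125). Tek, the angiopoietin receptor TIE2, read 9.04, 8.64 and 8.26 in R2 and 6.72, 6.89 and 7.17 in R3 (3.29-fold lower, adjusted p 0.00155). S1pr1, a receptor for sphingosine 1-phosphate, was 2.31-fold lower. The receptors and the ligands of the list gave different counts, since neither ligand was called: Apln changed by -0.78 (SE 0.19, adjusted p 0.0524) and Angpt2, an angiopoietin released by endothelium, by -0.40 (SE 0.19, adjusted p 0.304). The apelin ligand and its receptor thus stood on opposite sides of the threshold, and whether their differences differ was not tested. Apln was at or under the dim-signal guide on all 3 R1 arrays, all 3 R3 arrays and 1 R2 array. Eng, a co-receptor of the TGF-beta family, read 8.51, 8.35 and 7.97 in R2 and 7.86, 7.56 and 7.57 in R3 (-0.61, SE 0.16, adjusted p 0.0639).

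All 4 secreted and matrix proteins were lower in R3. Mmrn1, a multimerin of platelets and of endothelium that includes lymphatics, read 9.08, 9.69 and 9.40 in R2 and 5.64, 5.88 and 4.72 in R3 (-3.98, SE 0.28, 15.7-fold, adjusted p 5.02e-05). Mmrn2, the endothelial multimerin, read 8.11, 8.03 and 7.63 in R2 and 5.00, 5.23 and 5.63 in R3 (6.22-fold lower, adjusted p 0.000162). Vwf, the von Willebrand factor of endothelium and platelets, read 7.53, 7.52 and 8.01 in R2 and 4.89, 5.74 and 4.90 in R3 (5.7-fold lower, adjusted p 0.000645). Egfl7, a secreted regulator of vessel tubes, was 3.47-fold lower. For each of the 4 genes every R3 array was below every R2 array.

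Of the 8 signalling and other cell proteins, 7 were lower in R3. Besides Depp1 and Cyyr1 these were Myct1, She, Arhgef15, Rasip1 and Nos3. Myct1 read 8.26, 7.91 and 7.75 in R2 and 4.75, 4.72 and 2.95 in R3 (14.2-fold lower, adjusted p 0.00121). The R3 array of mouse 5 was the lowest of the 9, and the spread of Myct1 in R3 (SD 1.03, n = 3) was the widest of any of the 45 genes in any gate. The adaptor She was 4.81-fold lower, the guanine nucleotide exchange factor Arhgef15 2.83-fold, the Ras-interacting Rasip1 2.44-fold and the endothelial nitric oxide synthase Nos3 1.96-fold. For Myct1, She, Arhgef15 and Nos3 all 3 R3 arrays were at or under the dim-signal guide. So were all 3 R1 arrays and 1 R2 array of Nos3. Tmem204, a membrane protein of endothelial junctions, changed by -0.82 (SE 0.26, adjusted p 0.125), although its 3 R3 values (9.49, 8.91 and 9.73) were below its 3 R2 values (10.22, 10.08 and 10.29).

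The transcription factors were divided. Bcl6b, Erg, Fli1 and Hhex were lower in R3, and Ets1, Ets2, Tal1 and Lyl1 were not called. Bcl6b, a repressor found in endothelium, read 9.43, 9.43 and 9.37 in R2 and 6.62, 6.16 and 6.26 in R3 (8.36-fold lower, adjusted p 9.12e-06). Erg, the ETS factor most used as an endothelial marker, read 10.43, 10.23 and 9.99 in R2 and 7.67, 8.01 and 8.28 in R3 (4.68-fold lower, adjusted p 0.000101). Fli1, its close relative, read 7.65, 7.79 and 7.95 in R2 and 6.34, 6.06 and 6.25 in R3 (2.98-fold lower, adjusted p 0.000153). Hhex, a homeobox factor of early endothelium, was 3.87-fold lower, with all 3 R3 arrays at or under the dim-signal guide. Within the ETS family, then, Erg and Fli1 were lower in R3, while Ets1 changed by 0.23 (SE 0.16, adjusted p 0.485) and Ets2 by -0.46 (SE 0.17, adjusted p 0.194). The difference between these pairs was not tested. Tal1, a basic helix-loop-helix factor shared with blood cells, changed by -0.95 (SE 0.34, adjusted p 0.174) and its relative Lyl1 by -0.38 (SE 0.30, adjusted p 0.567), and for both the gates overlapped.

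Of the 3 lymphatic and scavenger genes only Lyve1 was called, at 9.47, 9.43 and 9.41 in R2 and 7.97, 7.62 and 7.56 in R3 (3.29-fold lower, adjusted p 0.000277). Prox1 read 7.14, 7.25 and 7.67 in R2 and 6.58, 6.87 and 6.96 in R3 (-0.55, SE 0.17, adjusted p 0.112). Stab1, a scavenger receptor of sinusoidal and lymphatic endothelium and of macrophages, read 8.03, 7.50 and 7.11 in R2 and 6.91, 6.66 and 6.60 in R3 (-0.82, SE 0.22, adjusted p 0.0653). For both genes the gates did not overlap. In the paired fit with mouse as a fixed replicate block both were called lower, Prox1 at an adjusted p of 0.049 and Stab1 at 0.0294. With mouse as a random block Cd93 (adjusted p 0.0498) and Apln (adjusted p 0.0475) were called as well. Without the R2 array of mouse 2 Cd93 (adjusted p 0.0268) and Apln (0.0183) passed, and without that of mouse 5 Eng (0.0276) and Stab1 (0.0235) did.

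Both selectins were lower in R3. Sele, the E-selectin of activated endothelium, read 9.69, 9.94 and 9.67 in R2 and 7.16, 6.52 and 7.50 in R3 (6.52-fold lower, adjusted p 0.000201). Selp, the P-selectin stored in endothelium and platelets, read 9.01, 8.11 and 8.82 in R2 and 5.73, 5.89 and 7.32 in R3 (5.05-fold lower, adjusted p 0.00774). The R3 array of mouse 5 was the highest of the gate for both selectins, and it stayed below all R2 arrays.

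**Figure D2:**
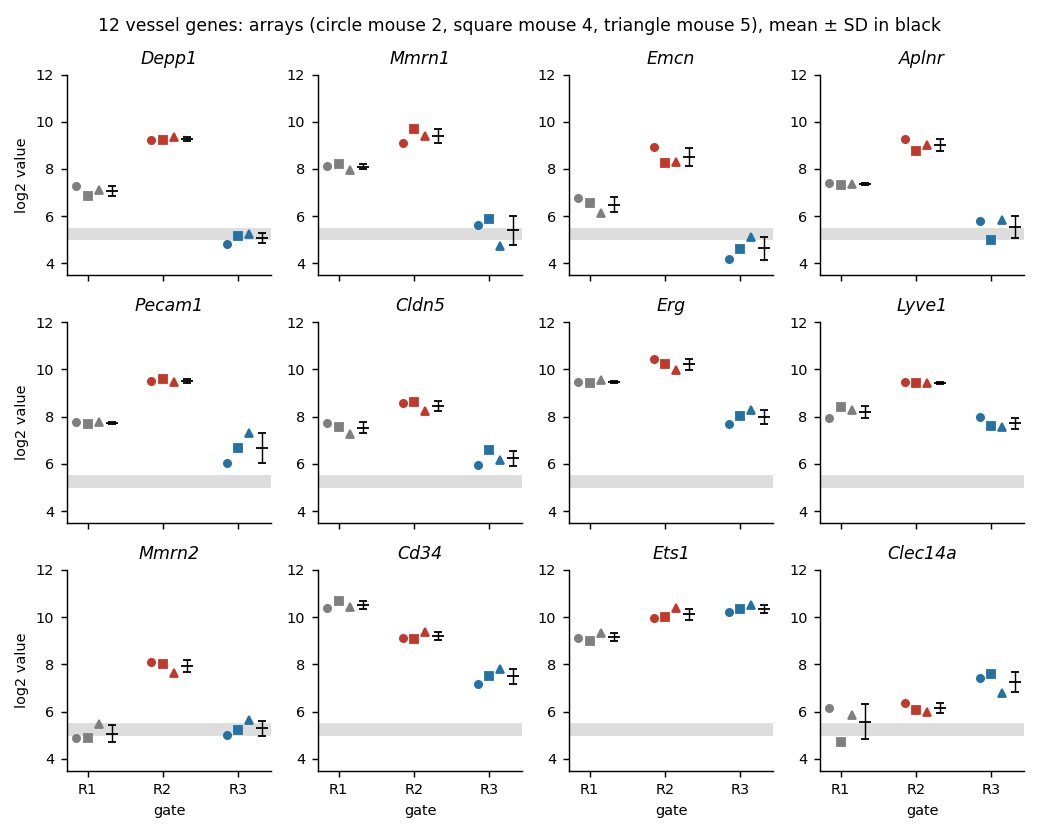
Log2 values of 12 vessel genes by gate (circle mouse 2, square mouse 4, triangle mouse 5), with the mean ± SD of the 3 arrays in black and the range of the dim-signal guide (5.02 to 5.47) as a grey band. Depp1, Mmrn1, Emcn, Aplnr and Mmrn2 reach the band in R3, Cd34 falls from R1 to R2 to R3, and Ets1 and Clec14a have their highest means in R3.

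The comparison of R2 with the CD133- gate R1 sets the population labelled as zigzag papilla against that labelled as dermal cells without papilla. In R2, 30 of the 45 vessel genes were higher, 2 were lower (Cd34 and Gja5) and 13 were not called. Over all genes 13.1% were called, 6.89% as higher and 6.16% as lower. The median change was 0.98 (1.98-fold), against -0.02 over all genes, and the 30 higher genes were 1.46- to 7.23-fold higher, 5 of them by at least 4-fold. All 3 R2 arrays were above all 3 R1 arrays for 33 genes, as for 15.4% of all genes, and below them for Cd34 and Gja5, as for another 15.4%. By role the higher genes were 7 of 13 junction and surface proteins, 4 of 7 receptors and ligands, all 4 secreted proteins, 7 of 8 signalling proteins, 4 of 8 transcription factors, all 3 lymphatic and scavenger genes and 1 of 2 selectins.

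Mmrn2 had the largest difference, with 4.86, 4.87 and 5.47 in R1 against 8.11, 8.03 and 7.63 in R2 (2.85, SE 0.23, 7.23-fold, adjusted p 5.82e-05). Its R1 arrays were at or near the dim-signal guide. Ptprb, the endothelial phosphatase that acts on Tek, read 6.55, 7.29 and 7.07 in R1 and 9.61, 9.60 and 9.13 in R2 (5.56-fold higher, adjusted p 9.84e-05). Cyyr1 was 5.21-fold, Depp1 4.6-fold and Emcn 4.02-fold higher. Tie1 was 3.83-fold higher in R2 (R1 arrays at 5.50, 5.04 and 4.22), Ecscr 3.51-fold, Pecam1 3.44-fold and Bcl6b 3.41-fold. Pecam1 was even in both gates, at 7.77, 7.68 and 7.76 in R1 and 9.49, 9.61 and 9.46 in R2.

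All 3 lymphatic and scavenger genes were higher in R2. Lyve1 read 7.92, 8.39 and 8.28 in R1 and rose by 1.24 (SE 0.16, 2.36-fold, adjusted p 0.000948). Prox1 read 6.44, 6.54 and 6.71 in R1 and rose by 0.79 (SE 0.17, 1.73-fold, adjusted p 0.0146). Stab1 read 6.84, 6.54 and 6.62 in R1 and rose by 0.88 (SE 0.22, 1.84-fold, adjusted p 0.027). Among the ETS factors Fli1 (2.92-fold), Ets1 (1.96-fold) and Erg (1.68-fold) were higher in R2, and Ets2 changed by 0.11 (SE 0.17, adjusted p 0.759). Erg read 9.45, 9.42 and 9.54 in R1 against 10.43, 10.23 and 9.99 in R2, so its gates did not overlap.

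Several of the smaller differences between R2 and R1 rested on single arrays or on the probe set. Leaving out the R2 array of mouse 4 ended the calls of Cldn5 (adjusted p 0.0523) and Mmrn1 (0.0603), leaving out the R2 array of mouse 2 that of Egfl7 (0.0503), and leaving out the R1 array of mouse 2 that of Prox1 (0.0526). Erg lost its call without the R1 or the R2 array of mouse 2 or of mouse 4 (adjusted p 0.0608 to 0.0764) and with the mean of its probe sets (0.47, adjusted p 0.0541), its other probe set giving 0.19 (adjusted p 0.702 over all probe sets). She, without the R1 array of mouse 2 or 5 or the R2 array of mouse 4 or 5, had an adjusted p of 0.0528 to 0.111. Stab1, without the R1 array of mouse 4 or 5 or the R2 array of mouse 2 or 4, had 0.0624 to 0.0855. Vwf (0.0636 to 0.108), Rasip1 (0.0743 to 0.159) and Nos3 (0.0588 to 0.124) lost their calls under 5 of the 6 omissions each. In the paired fit with mouse as a fixed replicate block Vwf (adjusted p 0.0655), Rasip1 (0.0651) and Gja5 (0.06) were no longer called. Eng, at 0.51 (SE 0.16, adjusted p 0.0699), was called higher in R2 without the R2 array of mouse 5 (0.0271).

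Against the CD133- gate R1, the GFP+CD133+ gate R3 was lower for 22 of the 45 genes and higher for Ets1 and Clec14a, and 21 were not called. Over all genes 18.7% were called, 7.9% as higher and 10.8% as lower. The median change was -0.71 (1.63-fold), against -0.01 over all genes, and the 22 lower genes were 1.61- to 8.04-fold lower. All 3 R3 arrays were below all 3 R1 arrays for 27 genes, against 18.9% of all genes, and above them for 2, against 15.5%. The lower genes were 7 of 13 junction and surface proteins, Aplnr alone of the 7 receptors and ligands, 3 of 4 secreted proteins, 5 of 8 signalling proteins, 4 of 8 transcription factors, none of the lymphatic and scavenger genes and both selectins.

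After Cd34, the largest falls from R1 to R3 were in Mmrn1 (8.14, 8.20 and 7.97 in R1 against 5.64, 5.88 and 4.72 in R3, 6.45-fold, adjusted p 0.000179) and Myct1 (5.5-fold, adjusted p 0.00504). Esam read 7.14, 7.07 and 6.77 in R1 and 4.56, 5.32 and 4.69 in R3 (4.4-fold lower, adjusted p 0.000298). Depp1 was 4.02-fold lower, Emcn 3.63-fold, Aplnr 3.58-fold, Selp 3.52-fold, Hhex 3.23-fold, and Erg and Vwf 2.79-fold each. For 6 of these 10 genes R2 was also above R1 by a call, and for Esam, Myct1, Hhex and Selp it was not. For Myct1 this depended on the probe set, since 2 of its 3 others were called higher in R2 than in R1 (1.19 and 1.09, adjusted p 0.0026 and 0.0111 over all probe sets) and so was the mean of its probe sets (1.12, adjusted p 0.00748). Pecam1 fell 2.09-fold from R1 to R3 (adjusted p 0.0209), with its R3 array of mouse 5 at 7.33 near the R1 values.

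Some genes that were lower in R3 than in R2 had no called difference between R3 and R1. Tek read 7.10, 7.30 and 6.85 in R1 and 6.72, 6.89 and 7.17 in R3 (difference -0.16, SE 0.21, adjusted p 0.679). Fli1 read 6.34, 6.27 and 6.14 in R1 and 6.34, 6.06 and 6.25 in R3 (-0.03, SE 0.13, adjusted p 0.906). Mmrn2 differed by 0.22 (SE 0.23), Ptprb by 0.26 (SE 0.21), S1pr1 by -0.17 (SE 0.21), Icam2 by -0.28 (SE 0.20) and Lyve1 by -0.48 (SE 0.16), none of them called, and for all 7 genes the R1 and R3 arrays overlapped. In all, 10 genes were lower in R3 than in R2 and higher in R2 than in R1 with no call between R3 and R1, while 16 were called in all 3 comparisons with R2 highest and R3 lowest. These 16 were Pecam1, Emcn, Cldn5, Ecscr, Plvap, Aplnr, Egfl7, Mmrn1, Vwf, Arhgef15, Rasip1, Depp1, Cyyr1, Erg, Bcl6b and Sele. Whether the 10 and the 16 differ as groups was not tested.

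Of the calls between R3 and R1, 7 depended on single arrays, on the probe set or on the fit. Arhgef15 lost its call without the R3 array of mouse 4 (adjusted p 0.0542) and with the mean of its probe sets (-0.33, adjusted p 0.158), and Tal1 lost it without the R3 array of mouse 2 (0.0549). Pecam1 lost it without any 1 of the R1 arrays or the R3 array of mouse 4 (0.0524 to 0.0606), and Plvap without the R1 or the R3 array of mouse 2 or of mouse 4 (0.0783 to 0.0899). Egfl7, without the R1 array of mouse 2 or 4 or the R3 array of mouse 5, had 0.0705 to 0.0775, and Rasip1, without the R1 array of mouse 2 or 4 or the R3 array of mouse 4, had 0.0507 to 0.0554. Ecscr lost its call without the R1 or the R3 array of mouse 2 or of mouse 5 (0.0784 to 0.092) and in the paired fit with mouse as a fixed replicate block (0.0562). Nos3 was called lower in that paired fit (adjusted p 0.035) and Gja5 with mouse as a random block (0.045). Leaving out 1 array also added calls: Lyve1 was called lower in R3 than in R1 without the R1 (adjusted p 0.0314) or the R3 array of mouse 2 (0.0382), and Gja4 without the R3 array of mouse 4 (0.0399). Without the R1 array of mouse 5, Gja5 (0.00227), Tie1 (0.029) and She (0.0198) were called lower.

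**Figure D3:**
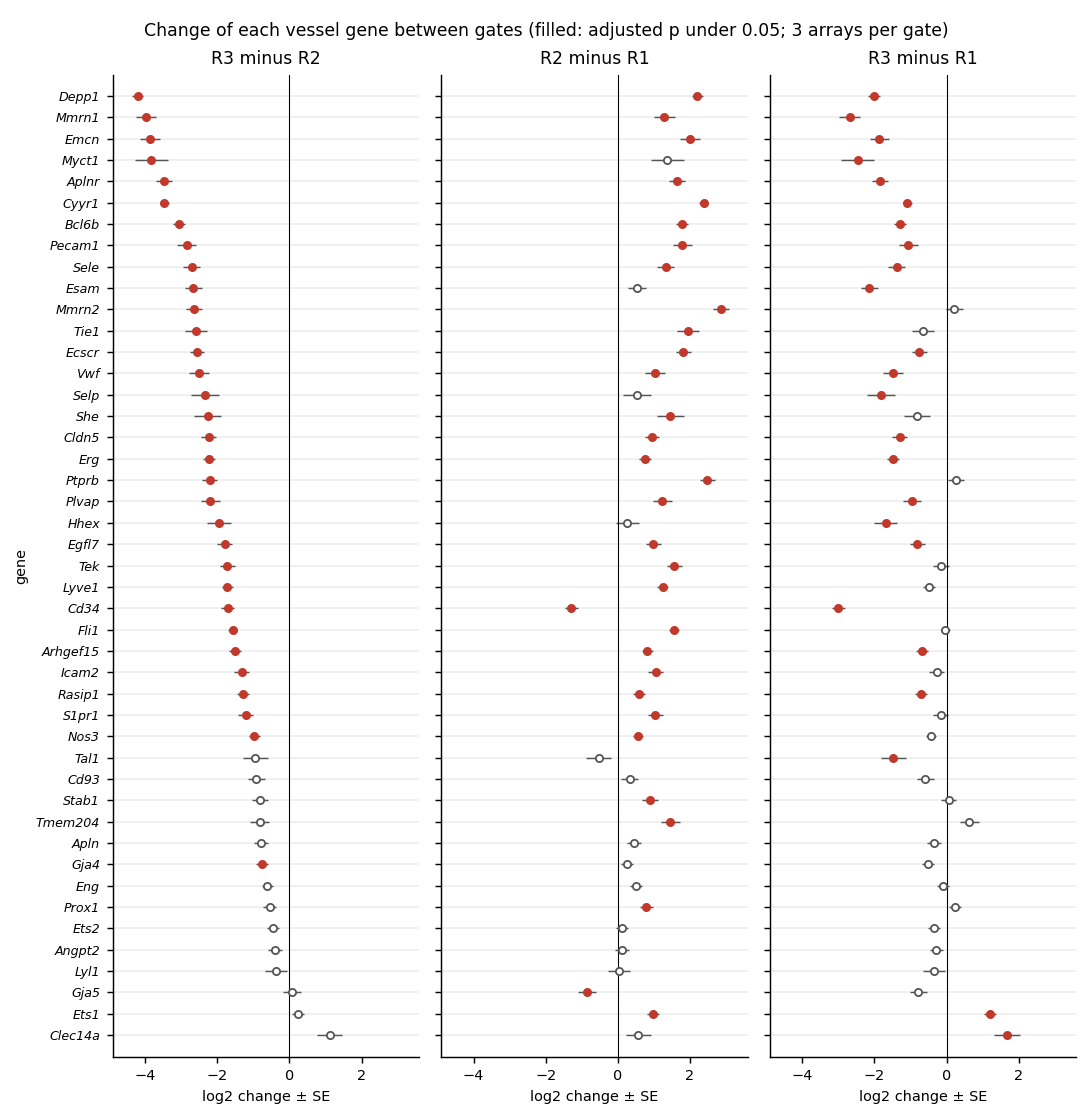
Log2 change of each vessel gene between gates, with R3 minus R2 at left, R2 minus R1 in the middle and R3 minus R1 at right; points are limma estimates from 3 arrays per gate, bars ± 1 SE, and filled points have an adjusted p under 0.05. Of the 45 genes 32 are filled left of 0 in the first panel, 30 are filled right of 0 in the second and 22 are filled left of 0 in the last.

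A few genes did not have the order of R2 highest and R3 lowest. Cd34, a sialomucin that in skin is also carried by fibroblasts, read 10.37, 10.70 and 10.43 in R1, 9.13, 9.08 and 9.39 in R2 and 7.16, 7.51 and 7.81 in R3. It fell by 1.30 from R1 to R2 (SE 0.18, adjusted p 0.00142) and by 3.01 from R1 to R3 (SE 0.18, 8.04-fold, adjusted p 8.11e-06), and no array of a gate reached another gate. The 9 dermal fibroblast markers measured beside it had means of 12.50 to 12.54 on the R1 arrays, 11.54 to 11.76 on the R2 arrays and 11.16 to 11.28 on the R3 arrays, with 5 of the 9 lower in R2 than in R1, 5 lower in R3 than in R1 and 0 higher in either. The part of those cells in the order of Cd34 was not tested.

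Ets1, an ETS factor of endothelium and of many other cells, read 9.12, 9.0 and 9.32 in R1, 9.97, 10.01 and 10.38 in R2 and 10.20, 10.34 and 10.53 in R3. It rose by 0.97 from R1 to R2 (SE 0.16, adjusted p 0.00334) and by 1.21 from R1 to R3 (SE 0.16, 2.31-fold, adjusted p 0.00071), while the R2 and R3 arrays overlapped. Clec14a, a C-type lectin of the endothelial surface that binds Mmrn2, read 6.14, 4.73 and 5.86 in R1, 6.36, 6.09 and 5.96 in R2 and 7.40, 7.59 and 6.77 in R3. It was 3.2-fold higher in R3 than in R1 (adjusted p 0.0086), and its 3 R3 arrays were above the 3 R2 arrays without a call (1.12, SE 0.35, adjusted p 0.114). Mmrn2 and Clec14a, whose proteins bind each other, thus had opposite signs between R3 and R2.

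Gja5, a connexin of arterial endothelium, read 6.77, 6.51 and 5.70 in R1, 5.52, 5.27 and 5.62 in R2 and 5.52, 5.61 and 5.51 in R3. It was 1.81-fold lower in R2 than in R1 (adjusted p 0.0458), and that call was lost when the R1 array of mouse 2 or 4 or any 1 of the R2 arrays was left out (adjusted p 0.0746 to 0.144). The other arterial connexin, Gja4, had no such order, with its highest mean in R2. Tal1 read 5.63, 5.46 and 5.73 in R1, 5.85, 5.01 and 4.37 in R2 and 3.69, 4.59 and 4.10 in R3, and fell 2.79-fold from R1 to R3 (adjusted p 0.015). On the probe set used, the 6 genes called in no comparison were Cd93, Angpt2, Apln, Eng, Ets2 and Lyl1.

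The array carries 84 probe sets for the 45 genes, and 22 genes have more than 1. The 39 probe sets not used above are a further reading of the same RNA. Between R3 and R2, 38 of the 39 had the sign of the probe set used and 23 were called over all probe sets. Between R2 and R1 all 39 had the same sign, 22 of them called, and between R3 and R1 33 of 39, 14 of them called. Clec14a was higher in R3 than in R2 on its other probe set too (1.23, adjusted p 0.0445 over all probe sets), and the 3 other probe sets of Ets1 gave 0.24 to 0.44, none called.

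Cd93, a lectin-like receptor of endothelium and of myeloid cells, depended most on the probe set. The one used, brightest on average, read 7.89, 8.56 and 8.53 in R2 and 7.12, 7.45 and 7.67 in R3 (-0.92, SE 0.23, adjusted p 0.056). Of its 4 others, 3 gave -3.52, -3.98 and -3.85, that is 11.4-, 15.8- and 14.4-fold lower in R3, each called, and the last gave -1.05 with values in the dim range. Its count among the uncalled genes above therefore follows from the rule of the brightest probe set, and the mean of its probe sets was -2.66 (adjusted p 1.41e-06). The 3 probe sets with the large falls were also called higher in R2 than in R1 (1.69, 1.95 and 1.70). They were called lower in R3 than in R1 (-1.83, -2.03 and -2.14), 1 of them with its R3 mean (4.87) under the dim-signal guide. The mean of the Cd93 probe sets was called in both comparisons too (1.26, adjusted p 6.6e-05, and -1.41, adjusted p 2.11e-05). Between R3 and R2, Prox1 had the only probe set of the opposite sign, at 0.23, beside -2.02 on another, neither called. The Prox1 probe set at 0.23 was called higher in R3 than in R1 (0.91, adjusted p 0.0143 over all probe sets). With the mean of all probe sets Prox1 (-0.78, adjusted p 0.0394), Tmem204 (-0.74, 0.0458) and Eng (-0.49, 0.0369) were called lower in R3 than in R2, and Clec14a was called higher (1.17, 0.0237). From R2 to R3 Aplnr was 11.2-fold lower on the probe set used and 1.85-fold lower on its other (adjusted p 0.101 over all probe sets). That other probe set was not called for R2 minus R1 (0.17, adjusted p 0.743) or R3 minus R1 (-0.71, adjusted p 0.0906) either. The calls of Aplnr in all 3 comparisons thus rest on the probe set used. Mmrn2 was called lower in R3 than in R2 and higher in R2 than in R1 on all 4 of its probe sets, with falls of 1.03 to 3.41 from R2 to R3. For 1 of the 4 the means of all 3 gates were at or under the dim-signal guide. The probe set with the fall of 3.41 had means under it in R1 (3.40) and R3 (3.36), so that fall is measured against background.

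**Figure D4:**
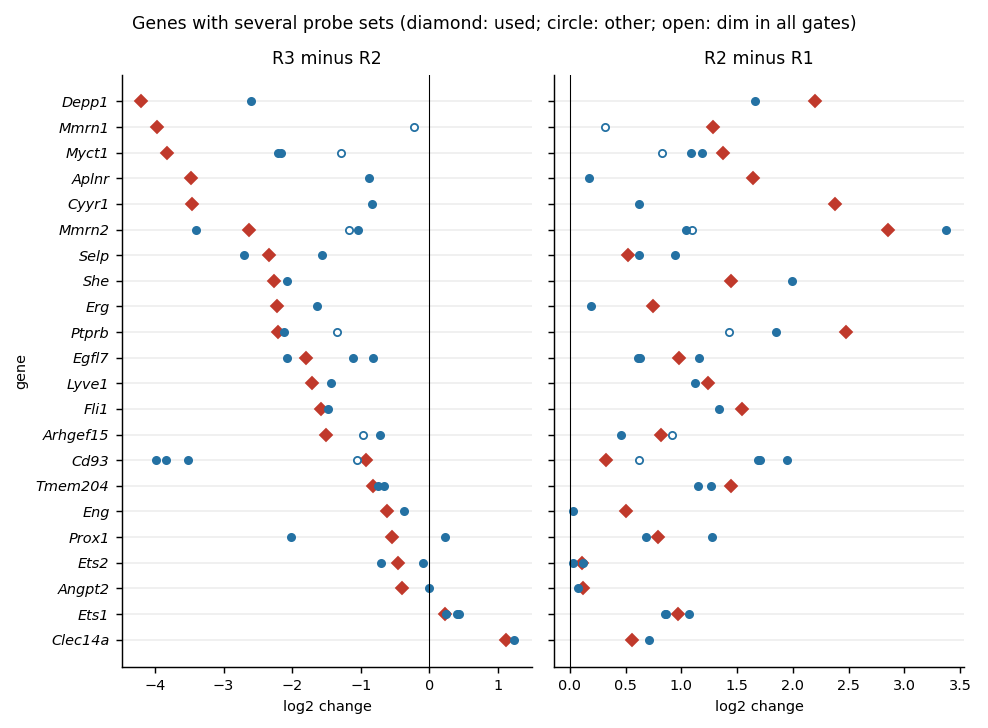
Log2 change of every probe set of the 22 vessel genes that have several, for R3 minus R2 (left) and R2 minus R1 (right); red diamonds are the probe sets used, blue circles the others, and open circles those at or under the dim-signal guide in all gates. The 3 probe sets of Cd93 near -4 lie far from the one used at -0.92, and 1 of Prox1 lies right of 0 at left.

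Other genes of the endothelium, listed as background and not members, followed a like order. This list too was chosen with earlier results of these arrays known, so its counts are no independent evidence. Of 39, 22 were lower in R3 than in R2 and 1 was higher (Nr2f2, a factor of venous endothelium that mesenchyme also expresses, by 0.88), with a median of -1.02. Between R2 and R1, 18 were higher and 1 was lower (Gata2, by 1.89), with a median of 0.51, and between R3 and R1 6 were higher and 12 lower. Cdh5, the cadherin of endothelial junctions, fell 7.7-fold from R2 to R3 and rose 2.6-fold from R1 to R2. The 3 VEGF receptors all fell from R2 to R3, Kdr 3.95-fold, Flt1 1.85-fold and Flt4 3.59-fold. Against R1, the R3 arrays were higher for Kdr (1.32-fold) and Flt1 (3.44-fold) and lower for Flt4 (2.45-fold) and Cdh5 (2.96-fold). The lowest adjusted p between R3 and R2 among the 39 after Adgrf5 and Kdr were those of Gimap6 (7.65-fold lower), the SOX factor Sox7 (5.95-fold), the guidance receptor Robo4 (8.72-fold) and the sialomucin Podxl (7.46-fold). Sox7, Robo4 and Podxl were not called between R3 and R1.

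The other lymphatic genes were mixed. Of 9 with a probe set, 4 were lower in R3 than in R2 (Flt4, Nrp2, Sema3d and Klhl4) and 2 higher (Reln by 1.90 and Itga9 by 1.59). Flt4, the VEGF-C receptor, stands in both lists, and Klhl4 was 7.55-fold lower. The Klhl4 values were at or under the dim-signal guide on every array except the R2 array of mouse 4 (6.01). Pdpn, a surface protein of lymphatic endothelium and other cells, changed by -0.29 (SE 0.18, adjusted p 0.439). Reln and Itga9 are also expressed outside vessels. Between R2 and R1 3 of the 9 were higher and 2 lower, so lymphatic genes outside the list of 45 did not share a single direction.

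Markers of other cells that the gates could hold were read in the same fits. Pericyte and smooth muscle markers (12) had means of 8.75 to 8.90 on the R1 arrays, 8.26 to 8.35 on R2 and 7.87 to 8.05 on R3, with 2 lower and 0 higher in R3 against R2, and 5 lower and 2 higher in R2 against R1. In R2 against R1 the lower ones were Rgs5 (5.07-fold), Kcnj8 (4.99-fold), Abcc9 (2.98-fold), Myh11 (2.16-fold) and Des (1.49-fold), and the higher ones the contractile genes Acta2 (2.43-fold) and Tagln (2.02-fold). None of the 12 macrophage and leukocyte markers was called between R3 and R2 (0 also at an unadjusted p under 0.05), with means of 7.17 to 7.61 on the R1 arrays, 6.48 to 7.34 on R2 and 6.96 to 7.57 on R3. The same 3 of them were lower in R2 and in R3 than in R1 and 0 were higher: the leukocyte phosphatase Ptprc (6.04-fold in R2 and 7.25-fold in R3) and the signalling adaptors Tyrobp (4.32- and 2.66-fold) and Fcer1g (2.62- and 2.46-fold). Among the R2 arrays, that of mouse 2 gave the macrophage and leukocyte mean of 7.34, against 6.48 for mouse 4 and 6.54 for mouse 5. None of the 7 platelet markers was called in any comparison (0, 1 and 0 at an unadjusted p under 0.05), and 3 of the 7 were at or under the guide on every array. Vwf, Selp and Mmrn1 are also held by platelets, and the part of platelets in their values was not tested.

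Markers of cells without a vessel role moved in the same comparisons. The 15 dermal papilla markers had means of 7.64 to 7.99 on the R1 arrays, 9.53 to 9.72 on R2 and 10.36 to 10.56 on R3, with 11 higher in R2 than in R1 and 7 higher and 1 lower (Prom1, which encodes CD133) in R3 than in R2. These markers include Prom1 and Sox2, the genes behind the sort markers CD133 and GFP. The means and counts of the list are therefore set in part by the sort itself. The 8 Schwann cell and glial markers had means of 5.25 to 5.71 on the R2 arrays and 8.63 to 8.90 on the R3 arrays, with 7 of 8 higher in R3. All 9 keratinocyte markers were lower in R2 and in R3 than in R1 (means of 10.37 to 10.92, 7.65 to 7.79 and 7.56 to 8.21). How far the make-up of the sorted cells accounts for the order of the vessel genes was not tested.

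**Figure D5:**
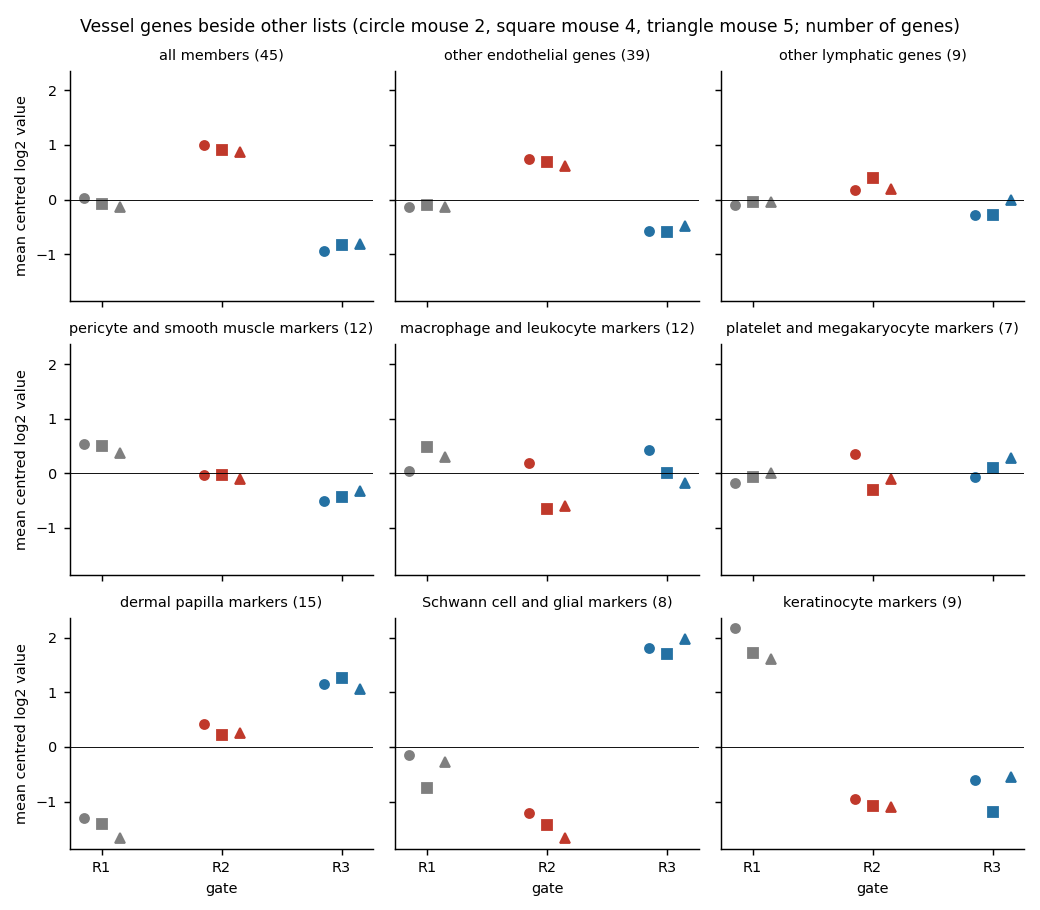
Mean of the log2 values of each list, every gene centred on its mean over the 9 arrays, by gate and array (circle mouse 2, square mouse 4, triangle mouse 5), for the vessel genes and 8 background lists with the number of genes in brackets. The vessel genes and the other endothelial genes peak in R2 and are lowest in R3, while papilla and glial markers are highest in R3 and keratinocyte markers in R1.

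As a description of likeness, the mean profile of the 45 genes over the 9 arrays was set against the other genes on the array. Genes whose symbol is a clone or predicted name were left out. The 10 genes with the highest Pearson r were Adgrf5 (0.989), Rasgrp3 (0.987), Sema7a (0.985), Mecom (0.981), Gimap6 (0.975), Wipf1 (0.975), Klhl4 (0.973), Stc1 (0.972), Apold1 (0.971) and Ctla2b (0.970). The 9 arrays share gates and mice, so r mostly records the order of the 3 gates. Klhl4 was at or under the dim-signal guide on every array except the R2 array of mouse 4. Adgrf5, an adhesion G protein-coupled receptor, had means of 7.54 in R1, 9.50 in R2 and 5.43 in R3. Among the members, 21 of 45 had r of at least 0.9 with the mean of the others, led by Depp1 (0.994) and Emcn (0.990), and 6 were under 0.5: Clec14a (-0.50), Gja5 (-0.13), Ets1 (-0.12), Lyl1 (0.39), Cd34 (0.46) and Tal1 (0.47).

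Within gates the median spread between mice was wider for the 45 genes than over all genes. The median SD over the 3 mice was 0.23 for the 45 genes in R1, 0.23 in R2 and 0.28 in R3, against 0.19, 0.18 and 0.19 over all genes. The widest spreads were those of Myct1 in R3 (SD 1.03), She in R1 (0.77) and Tal1 in R2 (0.74). Taken within each mouse, R3 minus R2 had the same sign in all 3 mice for 42 of the 45 genes, negative for 40 and positive for 2. R2 minus R1 had the same sign in all 3 mice for 39 genes (37 positive and 2 negative), and R3 minus R1 for 36 (31 negative and 5 positive). How often the mice agree in this way over the whole array was not worked out, so there is no background share to set beside these counts. The list was also chosen with results known, so the counts describe it and are no independent evidence.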

How the data were processed

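RNA from each sorted population was amplified, biotin-labelled and hybridised to 1 array, per the labels' protocols. The authors deposited log2 values after RMA, per the submitters' processing notes; its software and version, and which arrays were normalized jointly, were not stated there. Of 45101 probe sets, 34945 carried 1 gene symbol in the platform annotation, 932 several and 9160 none. Each of 18193 genes was read from the probe set with the highest mean. One coefficient per gate was fitted to the 9 arrays with limma 3.58.1 in R 4.3.3, without a mouse term, with Benjamini-Hochberg adjustment, after testing on simulated data. The number of arrays limits the precision. The gates of 1 mouse share the animal, so a mouse block was an alternative. Same-mouse deviations from the gate means correlated at 0.007 to 0.177 and those between mice at -0.157 to 0.041. Members and gene lists were chosen with earlier results of these data known. Every member was named by role, with array values for the largest changes and the exceptions; of other lists, the called genes with the lowest adjusted p. Cdh5, Flt1, Pdpn, Sox2, Nr2f2 and Gata2 were named after their values were seen.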

Additional observations from a re-analysis of the deposited data

How the results depend on the processing

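Each gene was refitted under 14 to 15 alternatives, and 0 calls reversed. Called under every alternative were 31 of 32 genes between R3 and R2 (Gja4 was not), 21 of 32 between R2 and R1 and 17 of 24 between R3 and R1. Clec14a was called higher in R3 than in R2 with only the 6 arrays compared and with the mean of all probe sets, which made that count 1 in each. The count of 2 genes lower in R2 than in R1 was 1 with mouse as a fixed replicate block, with only the 6 arrays compared, with every probe set tested singly and among genes above the median gene, and 1 to 2 with an array left out. Among genes above the median gene, where 24 of the 45 were tested, the counts were 19 lower in R3 than in R2, 19 higher in R2 than in R1, and 13 lower and 1 higher in R3 than in R1. Leaving out 1 array gave 31 to 33, 22 to 27 and 18 to 23 genes for the 3 main directions. The fixed replicate block gave 34, 28 and 22, and the random block 34, 30 and 23; apart from the calls given with the results, the paired fits changed no other. Differences of genes at the dim-signal guide in R3 are limited by background.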
